A study of Mus musculus with 12 samples.

Results

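The DNA replication genes described here are 34 genes of the machinery that prepares, starts and carries out the copying of chromosomal DNA. They were taken as a list of named genes from the 24478 symbols of the deposited tables, and for each the transcript with most reads over all libraries was used. By the step at which their proteins act, 10 belong to the licensing of origins, 6 to origin firing, 8 to the DNA polymerases, 8 to the sliding clamp and the lagging strand, and 2 to the binding of single-stranded DNA. All 34 passed the filter on low counts. Poly(A) RNA of mouse thymic tissue was sequenced in 12 libraries, 3 for each of 4 groups. The control tissue carried a label of T cells with endogenous MYC only. Spontaneous thymic lymphomas were labelled as T cells with ectopic MYCT58A only or with ectopic MYCS62A only, mutants that lack a phosphorylation site of the MYC oncoprotein. The thymic masses of MYCS62A animals with splenomegaly, an enlarged spleen, were labelled as T and B cells with both ectopic MYCS62A and endogenous MYC, and are called masses below. The sources used here do not give the strain, the age, the promoter that drives the ectopic MYC or the source animal of each library. P-values therefore rest on library-to-library spread, part of which may be technical.

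Replication starts from origins that are licensed in G1 phase. The origin recognition complex (ORC) binds DNA, and Cdc6 and Cdt1 load around it the ring of Mcm2 to Mcm7, which is the core of the replicative helicase. In S phase the kinase Cdc7 phosphorylates the ring, Cdc45 and the GINS complex join it, and Mcm10 helps the helicase to unwind DNA. Polymerase alpha and primase lay down primers, polymerase epsilon extends the leading strand and polymerase delta the lagging strand. The clamp PCNA, loaded by the RFC complex, holds the polymerases on DNA, and Fen1 and Lig1 join the lagging-strand fragments. The RPA complex coats the exposed single strand. Many of these genes are textbook targets of E2F transcription factors, which act at the entry into S phase, and MYC binds DNA at E-boxes. The thymus normally holds many dividing immature T cells.

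Promoter sequences were taken from RefSeq on build GRCm38.p6, as windows of 250 bases before to 50 bases after each start of a gene. Some genes had several windows (32851 for 27025 symbols), and a gene was counted when any of its windows held the motif. A window was found for 28 of the 34 genes, and none was used for Mcm4, Gins1, Gins2, Prim2, Pole and Rfc2. An E2F-type motif was searched as TTTCCCGC, TTTGGCGC, TTTCGCGC or TTTGCCGC on both strands. It stood in 13 of the 28 genes with a window (46.4%), against 2.60% of the 27025 symbols with a window. The 13 were Orc1, Cdc6, Cdt1, Mcm3, Mcm5, Mcm6, Mcm7, Gins3, Pola1, Pold1, Pole2, Rfc3 and Lig1. The E-box CACGTG stood in 5 of 28 genes (17.9%), which were Pola2, Rfc1, Fen1, Lig1 and Rpa1, against 8.09% of all symbols. The CCAAT box, another common promoter element, stood in 18 of 28 (64.3%), against 41.1%. A match of letters is a description and does not show that a factor binds there.

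The stretches below carry the motif in some of the genes on which the results turn, with the matched letters in capitals. Only matches wholly before the start of the gene are shown. None is therefore shown for Mcm3, Cdt1, Pold1, Pole2 and Lig1, whose E2F-type matches lie after it. They are written 5′ to 3′ on the strand of the gene. In both Mcm6 and Mcm5, 2 overlapping matches on opposite strands form 1 run of capitals, and in Orc1, Mcm7, Cdc6, Gins3 and Pola1 the match shown lies on the other strand. Mcm6 and Mcm7 also hold a further match on the strand of the gene that is not shown. Rpa1 is shown for its E-box.
Mcm6, chr1:128359778-128359841, minus strand: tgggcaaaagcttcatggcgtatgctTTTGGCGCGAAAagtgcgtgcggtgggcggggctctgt
Mcm5, chr8:75109330-75109393, plus strand: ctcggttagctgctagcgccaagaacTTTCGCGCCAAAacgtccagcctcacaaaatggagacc
Mcm7, chr5:138172015-138172074, minus strand: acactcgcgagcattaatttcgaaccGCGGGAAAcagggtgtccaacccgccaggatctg
Orc1, chr4:108579401-108579453, plus strand: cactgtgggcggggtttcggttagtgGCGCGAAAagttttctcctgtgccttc
Cdc6, chr11:98907987-98908046, plus strand: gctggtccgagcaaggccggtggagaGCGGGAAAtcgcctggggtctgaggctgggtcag
Gins3, chr8:95633492-95633551, plus strand: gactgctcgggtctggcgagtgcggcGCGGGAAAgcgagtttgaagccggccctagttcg
Pola1, chrX:93632260-93632319, minus strand: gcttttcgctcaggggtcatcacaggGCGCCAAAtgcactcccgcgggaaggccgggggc
Rpa1, chr11:75348420-75348477, minus strand: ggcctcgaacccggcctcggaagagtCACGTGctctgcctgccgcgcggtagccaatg

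Depth ranged from 9577373 to 22437969 reads per library over all symbols. Values below are read counts scaled to depth (CPM), and comparisons between genes use the deposited FPKM, which also divides by transcript length. Myc stood at 82.8 ± 2.82 CPM (SD, n = 3) in controls, 143 ± 13.4 in T58A, 173 ± 26.1 in S62A lymphomas and 91.9 ± 7.89 in masses, and whether reads of the ectopic MYC were counted as Myc is not given in the sources used here. The masses, labelled as T and B cells, held little of the thymocyte signal. The summed CPM of 8 double-positive thymocyte markers was 308 to 335 there against 9189 to 10519 in controls and 2624 to 4511 in the lymphomas. Rag2 was at 0 in mass 2, and Ptcra in mass 1 and in all 3 T58A lymphomas. The 8 pan T cell markers summed to 7951 to 8053 CPM in controls, 2232 to 3740 in the lymphomas and 771 to 879 in masses, and the 8 thymic epithelium markers to 2251 to 2466, 14.9 to 144 and 69.0 to 76.5. The 8 B cell markers summed to 1933 to 2604 CPM in masses, 74.1 to 79.4 in controls, 29.3 to 48.7 in S62A lymphomas, and 259, 368 and 35.3 in T58A lymphomas 1, 2 and 3. The 5 plasma cell markers found summed to 15164 to 23979 CPM in masses, 243 to 303 in controls, 177 to 635 in S62A lymphomas, and 1173, 2409 and 332 in T58A lymphomas 1, 2 and 3. Summed macrophage markers ran from 4332 to 7992 CPM in masses, 1541 to 2599 in the lymphomas and 627 to 725 in controls. In such mixed tissue, fewer cells of a type and less RNA per cell cannot be told apart, and the part of the cell mixture in the results below was not tested. The letter of the title code was G for controls 1 and 2, H for control 3 and T58A lymphomas, and I for every S62A library. What the letter stands for is not given in the sources used here, and it cannot be told apart from the S62A groups.

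The masses had the most calls among the replication genes, all of them lower than control, and the lymphomas had few. Calls are adjusted p-values under 0.05 in edgeR's quasi-likelihood test, fitted on all 15606 genes tested. Against control, 2 of 34 were higher and 4 lower in T58A lymphomas, where 18.8% of all genes tested were called higher and 17.4% lower. In S62A lymphomas 8 were higher and 1 lower, against 21.9% and 22.2% of all genes. In masses none was higher and 21 were lower, against 22.9% and 26.3%. The median log2 fold change of the 34 genes was -0.08, 0.28 and -0.54 in these comparisons, and that of all genes 0.01, 0.00 and -0.08. In the lymphomas the share of the 34 genes called was near or under that of all genes in each direction, and in the masses the share called lower was above it. All 3 masses lay below all controls in 28 of 34 genes, and 38.5% of all genes tested did so.

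**Figure D1:**
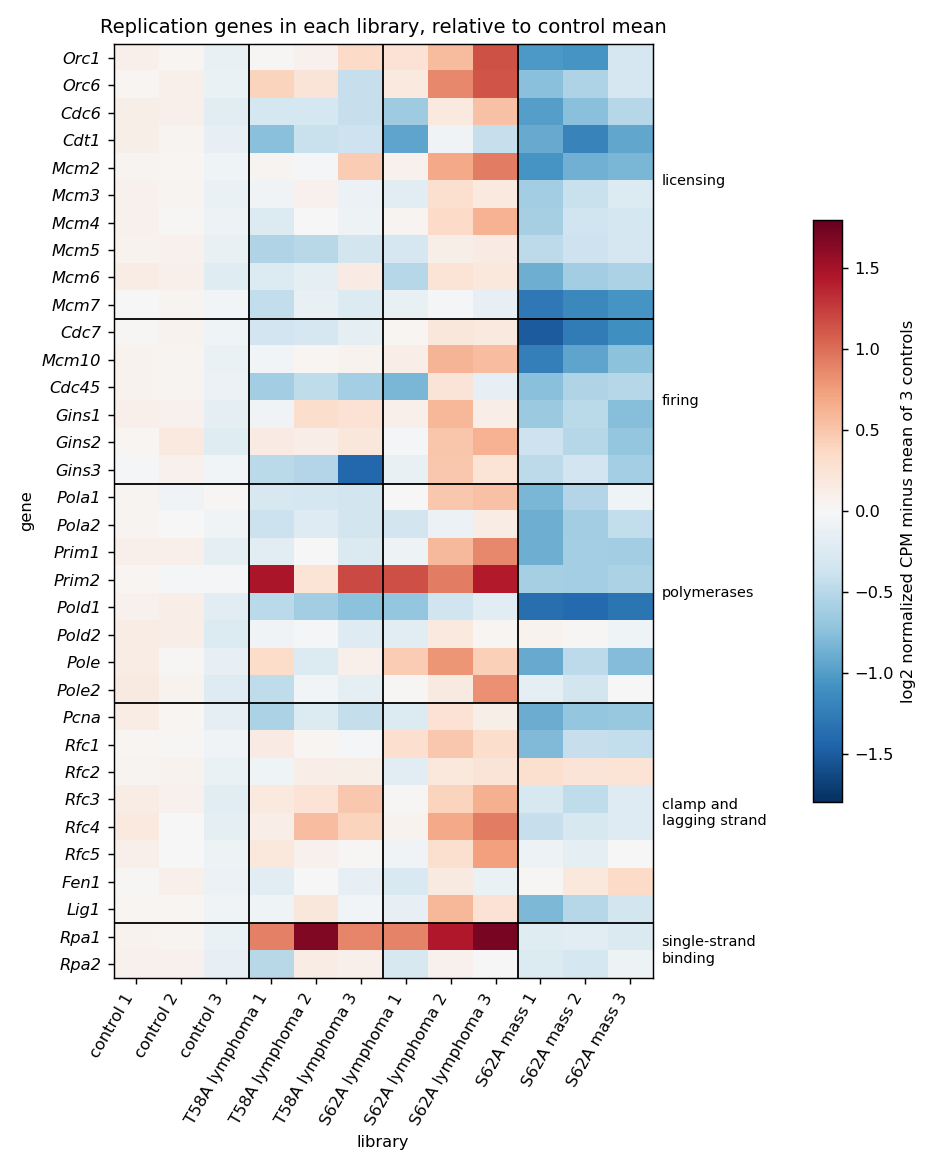
Log2 CPM of each replication gene (rows, by step) in each of the 12 libraries (columns), minus the mean of the 3 controls, where red is higher and blue lower. Most rows are blue in the 3 masses, Rpa1 and Prim2 are red in both lymphoma groups, and S62A lymphoma 1 is paler than S62A lymphomas 2 and 3.

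Libraries of a group did not stand equally. S62A lymphoma 1 had the lowest value of its group in 31 of 34 genes, and control 3 the lowest control value in 32 of 34. Without S62A lymphoma 1, 15 genes were called higher than control in S62A lymphomas, and without control 2, control 3 or S62A lymphoma 2 only 2. Leaving out control 1 or S62A lymphoma 3 left 4. The 1 lower gene there was lost without control 1, control 2 or S62A lymphoma 1. In T58A lymphomas the count of 4 lower genes became 1 without control 1 or 2 and 2 without T58A lymphoma 1 or 3. For the masses the count of 21 lower genes became 12 without control 1 or mass 1, 13 without control 2 or mass 2, and 17 without control 3 or mass 3. Of the 21 genes, 10 were called each time 1 library was left out: Cdt1, Mcm2, Mcm7, Cdc7, Mcm10, Pola2, Pold1, Pole, Pcna and Rfc1. In the lymphomas Prim2 and Rpa1 kept their calls in this way against control in both groups, and Pold1 in T58A lymphomas.

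Against the lymphomas, the masses had 27 of 34 genes lower than S62A lymphomas, where 28.6% of all genes were lower, and 17 lower than T58A lymphomas, against 24.6%. The libraries did not overlap, with every mass lower, in 26 genes against S62A lymphomas (30.2% of all genes) and 24 against T58A lymphomas (29.9%). No gene of the 34 was called higher in either comparison, against 25.6% and 20.5% of all genes. The numbers lower were 20 to 30 and 12 to 17 when each library was left out in turn. The lower count of each range came without mass 1. Of the 34 genes, 13 were lower in the masses than in each of the other 3 groups: Orc1, Mcm2, Mcm6 and Mcm7, Cdc7, Mcm10, Gins1 and Gins2, Prim1, Pold1 and Pole, and Rfc1 and Lig1. Over all genes tested, 11.9% met the same 3 calls. Of the 13, 7 were called in all 3 comparisons each time 1 library was left out, namely Mcm2, Mcm7, Cdc7, Mcm10, Pold1, Pole and Rfc1. Prim1 was called against T58A lymphomas in none of the 6 left-out fits (adjusted p 0.0625 to 0.188), and not by DESeq2 (adjusted p = 0.070). At the other end, 6 genes were called in none of the 6 comparisons: Pold2, Pole2, Rfc2, Rfc5, Fen1 and Rpa2. By group means, S62A lymphomas were highest in 25 genes and masses lowest in 28. Controls were highest in 7 genes, which were Cdt1, Mcm5, Mcm7, Cdc45, Pola2, Pold1 and Rpa2.

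**Figure D2:**
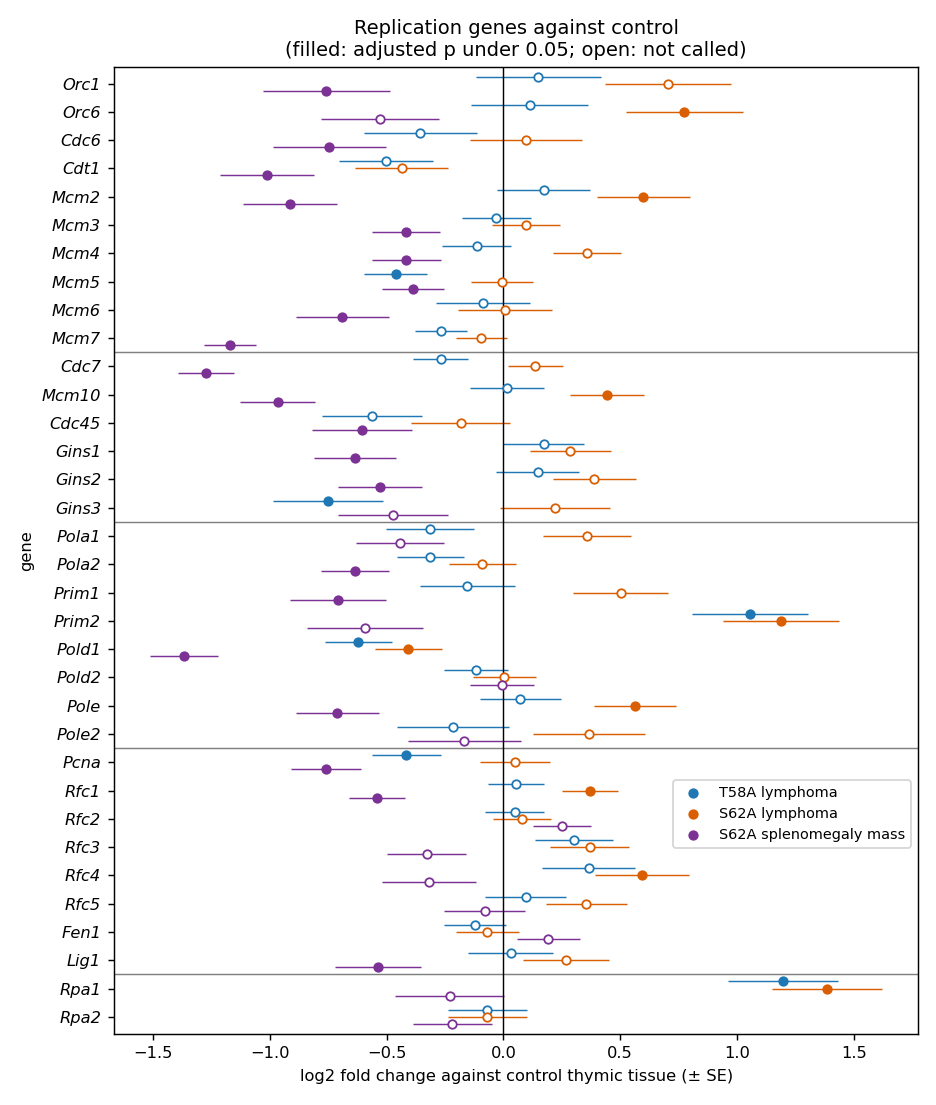
Log2 fold change against control for the 34 genes by step (n = 3 per group), with 1 colour per group and filled points for calls. Bars are ± SE from the edgeR test, whose spread is shared by all 12 libraries. Nearly all mass points lie left of 0, and the points of Prim2 and Rpa1 lie past 1 in both lymphoma groups.

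Licensing genes fell in the masses. There 9 of 10 were lower than control, with a median log2 fold change of -0.72, and 10 of 10 were lower than in S62A lymphomas (median -0.81). Only 4 of 10 were lower than in T58A lymphomas (median -0.55). Of all genes, 26.3%, 28.6% and 24.6% were lower in these comparisons. Among the 10, the calls of Mcm5 and Cdt1 against S62A lymphomas each held in 1 of 6 left-out fits. Mcm5 was not called there by DESeq2 (adjusted p = 0.0645). In T58A lymphomas 1 of 10 was lower than control and in S62A lymphomas 2 were higher, at or below the 17.4% and 21.9% of all genes.

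Cdt1, which brings the MCM ring to origins, stood at 129, 124 and 109 CPM in controls, 71.2, 91.4 and 92.9 in T58A, 62.5, 115 and 90.02 in S62A lymphomas and 64.2, 52.4 and 63.00 in masses. Every mass and every T58A lymphoma was below every control, and S62A lymphoma 2 alone of the S62A lymphomas reached the control range. The masses were 2.02-fold lower than control (log2 fold change -1.01 ± 0.20, adjusted p = 0.00187). Neither lymphoma group was called, at -0.50 ± 0.20 in T58A (adjusted p = 0.0701) and -0.44 ± 0.20 in S62A (adjusted p = 0.0979). Against S62A lymphomas the masses were called at -0.58 ± 0.20 (adjusted p = 0.0306), but the log2 fold change was -0.35 (adjusted p = 0.138) without S62A lymphoma 2. The call was also lost without S62A lymphoma 3, mass 1, mass 2 or mass 3, with adjusted p up to 0.101. RLE factors, no filter on low counts and only the groups compared lost it too (adjusted p up to 0.110). The ratio of Cdt1 to Gmnn in FPKM, where Gmnn encodes geminin, the inhibitor of Cdt1, was 0.648 ± 0.0127 (SD) in controls. It was 0.329 ± 0.0582 in T58A, 0.293 ± 0.0205 in S62A lymphomas and 0.386 ± 0.0402 in masses, and all 9 of these libraries were below all controls.

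Cdc6, the other loader, stood at 75.2, 74.99 and 61.2 CPM in controls, 56.2, 56.5 and 52.6 in T58A, 45.2, 79.3 and 101 in S62A lymphomas and 35.3, 41.6 and 49.2 in masses. The S62A lymphomas spanned values below and above all controls, and the masses lay below them. The masses were 1.68-fold lower than control (log2 fold change -0.75 ± 0.24, adjusted p = 0.0249), a call lost without control 1 or 2 or mass 1 or 2 (adjusted p up to 0.106). T58A lymphomas gave -0.36 ± 0.24 (adjusted p = 0.271).

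Orc6, a subunit of ORC, stood at 77.5, 80.1 and 69.1 CPM in controls and 84.95, 137 and 166 in S62A lymphomas. All S62A lymphomas were above all controls, and S62A lymphoma 1 was the nearest to them. Orc6 was 1.71-fold higher in S62A lymphomas (log2 fold change 0.78 ± 0.25, adjusted p = 0.0275), a call lost without control 1, 2 or 3 or S62A lymphoma 2 or 3 (adjusted p up to 0.102). That call was also lost with limma on FPKM (adjusted p = 0.0671). In T58A lymphomas Orc6 stood at 99.9, 88.6 and 56.5 CPM, on both sides of the controls, and in masses at 44.9, 51.1 and 60.97, below them, with no call against control (adjusted p = 0.103). Orc1, the large ATPase subunit, had the lowest FPKM of the 34 genes in controls (8.05) and in masses (4.40). It was 1.69-fold lower in masses than in control, a call lost without control 1, 2 or 3 or mass 1 or 2 (adjusted p up to 0.14), and 2.75-fold lower than in S62A lymphomas. The call against control was also lost with no filter on low counts (adjusted p = 0.0543).

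All 6 subunits of the MCM ring were called lower in the masses than control, but Mcm3, Mcm4 and Mcm5 lost the call in some other settings. Mcm2 stood at 284, 279 and 259 CPM in controls, 283, 268 and 375 in T58A, 288, 438 and 519 in S62A lymphomas and 131, 151 and 155 in masses. Masses were lowest without overlap, and S62A lymphoma 1 lay just above the controls. Mcm2 was 1.88-fold lower in masses than control (log2 fold change -0.91 ± 0.20, adjusted p = 0.00328) and 2.86-fold lower than in S62A lymphomas (log2 fold change -1.51 ± 0.20, adjusted p = 0.000126). It was 1.51-fold higher in S62A lymphomas than control (log2 fold change 0.60 ± 0.20, adjusted p = 0.0307), a call lost without control 1, 2 or 3 or S62A lymphoma 2 or 3 (adjusted p up to 0.114). That call was also lost with library size only, only the groups compared and limma on FPKM (adjusted p up to 0.0888).

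Mcm7 stood at 213, 222 and 207 CPM in controls, 157, 195 and 181 in T58A, 195, 212 and 194 in S62A lymphomas and 87.3, 95.7 and 102 in masses. The masses had less than the lowest lymphoma by a wide margin. Mcm7 was 2.25-fold lower in masses than control (log2 fold change -1.17 ± 0.11, adjusted p = 1.56e-05) and 2.11-fold lower than in S62A lymphomas (log2 fold change -1.08 ± 0.11, adjusted p = 2.56e-05). On build mm9 it lies at chr5:138605817-138613090 on the minus strand and its span holds Mir25, Mir93 and Mir106b, microRNA genes listed with at most 78 reads against 35400 for Mcm7.

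Mcm5 stood at 283, 287 and 246 CPM in controls, 187, 192 and 215 in T58A, 221, 291 and 302 in S62A lymphomas and 195, 209 and 219.9 in masses. T58A lymphomas and masses had alike ranges below the controls, and S62A lymphomas reached from below the controls to above them. Mcm5 was the MCM gene called in T58A lymphomas, 1.38-fold lower than control (log2 fold change -0.46 ± 0.13, adjusted p = 0.0202), a call lost without control 1 or 2 or T58A lymphoma 1 or 2 (adjusted p up to 0.0764). In masses it was 1.31-fold lower (log2 fold change -0.39 ± 0.13, adjusted p = 0.0323), a call lost without control 1 or 2 or mass 1, 2 or 3 (adjusted p up to 0.137), with RLE factors (adjusted p = 0.0545) and with no filter on low counts (adjusted p = 0.0655).

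Mcm3 stood at 267, 260.2 and 232 CPM in controls, 242, 267 and 235 in T58A, 218, 309 and 284 in S62A lymphomas and 164, 192 and 213 in masses. Mcm4 stood at 207, 201 and 184 CPM in controls, 166, 196 and 185 in T58A, 204, 251 and 303 in S62A lymphomas and 131, 154 and 159 in masses. Mcm6 stood at 382, 372 and 299.7 CPM in controls, 295, 309 and 388 in T58A, 245, 414 and 400.2 in S62A lymphomas and 190.2, 227 and 236 in masses. For all 3 genes the masses lay below every control, and the lymphomas overlapped the controls or, for Mcm4 in S62A, lay mostly above them. The masses were 1.33-fold lower for Mcm3 (adjusted p = 0.0352), 1.33-fold for Mcm4 (adjusted p = 0.0362) and 1.61-fold for Mcm6 (adjusted p = 0.0147). The call of Mcm3 was lost without control 1 or 2 or mass 1 or 2 (adjusted p up to 0.168). With RLE factors both Mcm3 and Mcm4 lost the call (adjusted p = 0.0563 and 0.05745), as with no filter on low counts (adjusted p = 0.0666 and 0.06385). The call of Mcm4 was also lost without control 1, 2 or 3 or mass 1, 2 or 3 (adjusted p up to 0.165), and that of Mcm6 without control 1 or mass 1 (adjusted p up to 0.0763).

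Expressed as a share of the summed FPKM of the 6 subunits, Mcm2 made up 17.0% ± 0.377 (SD, n = 3) in controls. Its share was 20.7% ± 2.70 in T58A, 22.7% ± 2.77 in S62A lymphomas and 14.2% ± 0.223 in masses, with no control library inside the range of another group. The share of Mcm5 was 16.7% ± 0.289 in controls, 13.2% ± 0.363 in T58A, 14.9% ± 0.288 in S62A lymphomas and 20.2% ± 0.790 in masses, and here no 2 groups overlapped. Mcm7 made up 19.1% to 20.9% in controls and 13.8% to 14.4% in masses. The shares of Mcm3 and Mcm6 were 22.7% ± 0.834 and 15.4% ± 0.359 in masses, against 19.3% ± 0.218 and 15.7% ± 0.985 in controls. The transcript of Mcm2 thus took more of the total in the lymphomas and less in the masses, and that of Mcm5 the reverse. These shares were not tested. The summed FPKM itself ran from 553 to 636 in controls, 499 to 599 in T58A, 501 to 714 in S62A lymphomas and 315 to 383 in masses.

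**Figure D3:**
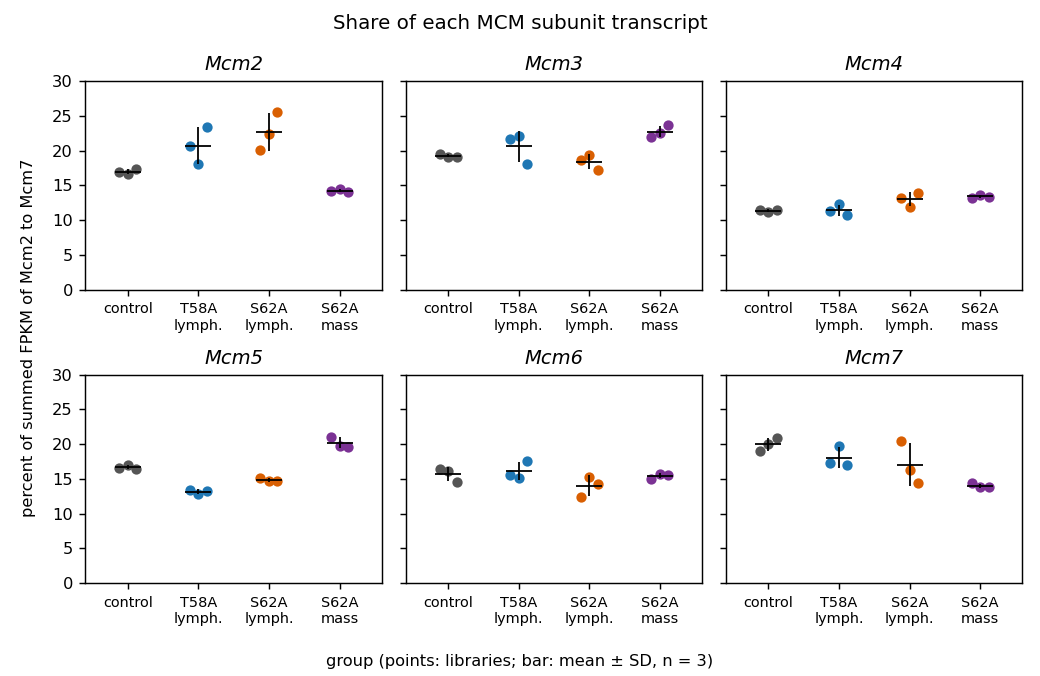
Share of each MCM subunit (percent of the summed FPKM of Mcm2 to Mcm7) in each library by group, with bars for the mean ± SD of 3 libraries. The Mcm2 share is 16.7% to 17.4% in controls, below that in all lymphomas and above that in all masses, and the Mcm5 share runs the other way.

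Firing genes also fell in the masses. There 5 of 6 were lower than control (median log2 fold change -0.62), 5 of 6 lower than in S62A lymphomas (median -0.92) and 4 of 6 lower than in T58A lymphomas (median -0.74). The shares of all genes were 26.3%, 28.6% and 24.6%. In T58A lymphomas 1 of 6 was lower than control, and in S62A lymphomas 1 was higher, below the 17.4% and 21.9% of all genes.

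Cdc7, the kinase that phosphorylates the MCM ring, stood at 105, 107 and 97.3 CPM in controls, 81.3, 83.7 and 91.6 in T58A, 105, 119 and 116 in S62A lymphomas and 36.6, 43.2 and 48.1 in masses. The highest mass had 48.1 CPM and the lowest of the other libraries 81.3. Of the 34 genes Cdc7 had the smallest adjusted p in all 3 comparisons of the masses. The masses were 2.42-fold lower than control (log2 fold change -1.27 ± 0.12, adjusted p = 1.49e-05), 2.66-fold lower than S62A lymphomas (log2 fold change -1.41 ± 0.12, adjusted p = 8.10e-06) and 2.01-fold lower than T58A lymphomas (log2 fold change -1.01 ± 0.12, adjusted p = 9.83e-05). Dbf4, the activating subunit of Cdc7, was also lower in masses than control (log2 fold change -0.55 ± 0.16, adjusted p = 0.0131). In S62A lymphomas Dbf4 was higher than control (log2 fold change 0.63 ± 0.16, adjusted p = 0.00772), and Cdc7 was not called there (0.14 ± 0.12, adjusted p = 0.367).

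Mcm10 stood at 62.96, 62.4 and 55.6 CPM in controls, 58.3, 61.7 and 62.9 in T58A, 65.7, 92.2 and 88.4 in S62A lymphomas and 25.6, 31.1 and 35.99 in masses. T58A lymphomas lay within the range of the controls, S62A lymphomas above it and masses below it. Mcm10 was 1.95-fold lower in masses (log2 fold change -0.97 ± 0.16, adjusted p = 0.000572). It was 1.36-fold higher in S62A lymphomas (log2 fold change 0.44 ± 0.16, adjusted p = 0.0396), a call lost without control 1, 2 or 3 or S62A lymphoma 2 or 3 (adjusted p up to 0.131). That call was also lost with RLE factors, library size only, no filter on low counts, only the groups compared and limma on FPKM (adjusted p up to 0.126).

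Of the GINS subunits measured, Gins3 was the 1 called in T58A lymphomas. Gins3 stood at 36.6, 39.5 and 36.1 CPM in controls, 26.6, 25.99 and 14.1 in T58A, 34.2, 52.4 and 44.1 in S62A lymphomas and 26.9, 29.5 and 24.5 in masses. All T58A lymphomas were below all controls, and T58A lymphoma 3 was the lowest of the 12 libraries. Gins3 was 1.68-fold lower in T58A lymphomas (log2 fold change -0.75 ± 0.24, adjusted p = 0.029), a call lost without control 1, 2 or 3 or T58A lymphoma 3 (adjusted p up to 0.0859). That call was also lost with only the groups compared (adjusted p = 0.0515). Gins1 and Gins2 were not called there, at 0.17 ± 0.17 and 0.15 ± 0.18. In masses Gins1 was 1.55-fold and Gins2 1.44-fold lower than control, with adjusted p 0.011 and 0.0294. The call of Gins1 was lost without mass 3 (adjusted p up to 0.0656) and that of Gins2 without control 1 or 2 or mass 2 or 3 (adjusted p up to 0.157). Gins2 overlaps Gse1 on the opposite strand, and the strand setting of the counting is not given in the sources used here, so its level is uncertain. Gins1 has a second transcript in the tables with 0.305 of the reads of the one used. Cdc45, which joins MCM and GINS in the active helicase, was 1.52-fold lower in masses (adjusted p = 0.0357), a call lost without control 1, 2 or 3 or mass 1, 2 or 3 (adjusted p up to 0.138). With no filter on low counts the calls of Cdc45 and Gins2 in masses against control were lost too (adjusted p = 0.0572 and 0.0514).

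Among the polymerase and primase genes, Prim2 rose and Pold1 fell in both lymphoma groups. In T58A lymphomas 1 of 8 was higher and 1 lower than control (median log2 fold change -0.19), and in S62A lymphomas 2 were higher and 1 lower (median 0.36), counts near or below the share of all genes. In masses 4 of 8 were lower than control (median -0.61), 6 of 8 lower than S62A lymphomas and 4 of 8 lower than T58A lymphomas. The shares of all genes were 26.3%, 28.6% and 24.6%.

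Prim2, the large subunit of primase at chr1:33510653-33726639 (mm9, minus strand), stood at 50.6, 48.4 and 48.7 CPM in controls, 136, 58.4 and 112 in T58A, 111, 93.2 and 133 in S62A lymphomas and 32.5, 32.1 and 33.3 in masses. Every lymphoma was above every control, with T58A lymphoma 2 nearest to them, and every mass was below. Prim2 was 2.08-fold higher in T58A lymphomas (log2 fold change 1.05 ± 0.25, adjusted p = 0.00721) and 2.28-fold higher in S62A lymphomas (log2 fold change 1.19 ± 0.25, adjusted p = 0.00304). The masses were 3.44-fold lower than S62A lymphomas (log2 fold change -1.78 ± 0.25, adjusted p = 0.000181) and 3.14-fold lower than T58A lymphomas (log2 fold change -1.65 ± 0.25, adjusted p = 0.000453). Against control the masses were not called (-0.59 ± 0.25, adjusted p = 0.0669). That SE uses a spread shared by all 12 libraries. The SD of Prim2 was 39.8 CPM in T58A and 19.9 in S62A lymphomas, but 1.17 in controls and 0.598 in masses.

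Prim1, the catalytic subunit of primase, was not called in the lymphomas. It stood at 81.2, 81.3 and 67.7 CPM in controls, 66.6, 76.6 and 63.7 in T58A lymphomas and 72.1, 115 and 139 in S62A lymphomas, with -0.15 ± 0.20 (adjusted p = 0.583) and 0.50 ± 0.20 (adjusted p = 0.0659) against control. All but 2 of these lymphomas, S62A 2 and 3, lay within or below the control range. The FPKM ratio of Prim2 to Prim1 was 0.467 ± 0.0470 (SD, n = 3) in controls, 1.10 ± 0.487 in T58A, 0.796 ± 0.276 in S62A lymphomas and 0.505 ± 0.0541 in masses. The ratio was above every control in all 6 lymphomas, the lowest at 0.551, but mass 1 also reached 0.566, and it was not tested. Polymerase alpha itself, whose subunits bind primase, was not called against control in either lymphoma group. Pola1, its catalytic subunit, stood at 65.3, 60.1 and 63.6 CPM in controls, 51.3, 50.8 and 50.05 in T58A, 63.00, 88.2 and 90.8 in S62A lymphomas and 35.5, 43.6 and 59.9 in masses. T58A lymphomas were below all controls, and S62A lymphomas 2 and 3 above them. Pola2 was 1.55-fold lower in masses than control (adjusted p = 0.00395), and Pola1 was not called there (adjusted p = 0.0722).

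Pold1, the catalytic subunit of polymerase delta at chr7:51788114-51804185 (mm9, minus strand), stood at 124, 127 and 102 CPM in controls, 83.4, 75.8 and 70.5 in T58A, 72.03, 91.8 and 103 in S62A lymphomas and 45.8, 44.4 and 46.9 in masses. The T58A lymphomas were below the controls and the masses below both, while S62A lymphoma 3 reached control 3. Pold1 was the 1 gene of the 34 called lower than control in all 3 groups. It was 1.54-fold lower in T58A lymphomas (log2 fold change -0.62 ± 0.14, adjusted p = 0.00652), 1.33-fold in S62A lymphomas (log2 fold change -0.41 ± 0.14, adjusted p = 0.0378) and 2.58-fold in masses (log2 fold change -1.37 ± 0.15, adjusted p = 3.17e-05). The call in S62A lymphomas was lost without control 1 or 2 or S62A lymphoma 1 or 2 (adjusted p up to 0.132). That call was also lost with only the groups compared (adjusted p = 0.0854). In the masses Pold1 was also 1.94-fold lower than in S62A lymphomas (adjusted p = 0.000266).

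Of the partner subunits of Pold1, Pold3 fell and Pold4 rose in the masses. Pold2, a further subunit of polymerase delta, was called in no comparison, with group means from 62.04 to 67.6 CPM. The FPKM ratio of Pold1 to Pold2 was 0.868 ± 0.0296 (SD, n = 3) in controls, 0.611 ± 0.0330 in T58A, 0.650 ± 0.0779 in S62A lymphomas and 0.338 ± 0.0244 in masses. All lymphomas were below all controls in this ratio and all masses below all lymphomas. Pold3 was lower in masses than control (log2 fold change -0.64 ± 0.16, adjusted p = 0.006). Pold4, the smallest subunit, went the other way, with 30.4, 29.3 and 29.2 CPM in controls and 113, 78.2 and 84.8 in masses. Pold4 was 1.64 ± 0.19 on the log2 scale above control in masses (adjusted p = 6.42e-05), the smallest adjusted p among the 40 other replication genes described below. Pold2 overlaps Aebp1 on the opposite strand, with the same uncertainty over strand as for Gins2.

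Pole, the catalytic subunit of polymerase epsilon, stood at 72.7, 66.8 and 59.5 CPM in controls, 83.4, 55.7 and 70.3 in T58A, 90.8, 114 and 89.02 in S62A lymphomas and 35.3, 47.8 and 38.6 in masses. S62A lymphomas were above all controls, masses below all, and T58A lymphomas on both sides. Pole was 1.48-fold higher in S62A lymphomas (log2 fold change 0.56 ± 0.18, adjusted p = 0.0227), a call lost without control 2 or 3 or S62A lymphoma 2 (adjusted p up to 0.0882). That call was also lost with library size only and limma on FPKM (adjusted p up to 0.0726). Pole was 1.64-fold lower in masses (log2 fold change -0.71 ± 0.18, adjusted p = 0.00656). Its partner Pole2 was called in no comparison, at 14.8 to 22.1 CPM by group mean. Pole3, a small histone-fold subunit of the same enzyme, was higher than control in both lymphoma groups (1.19 in T58A, adjusted p = 0.000213, and 0.90 in S62A, adjusted p = 0.000852).

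Clamp and lagging-strand genes were the step least called in the masses against control among the 4 large ones, 3 of 8 lower, with a median log2 fold change of -0.32. In the masses 5 of 8 were lower than S62A lymphomas (median -0.75) and 4 of 8 lower than T58A lymphomas (median -0.46). Of all genes, 26.3% were lower in masses than control, 28.6% than S62A and 24.6% than T58A lymphomas. In T58A lymphomas 1 of 8 was lower than control and in S62A lymphomas 2 were higher, again near or below the share of all genes. Differences between steps were not tested.

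Pcna had the highest FPKM of the 34 genes in controls (202) and in masses (111). Its CPM was 220.2, 205 and 178 in controls, 135, 169 and 148 in T58A, 169, 239 and 216 in S62A lymphomas and 108, 123 and 124 in masses. T58A lymphomas and masses were below every control, and S62A lymphomas reached from below to above them. Pcna was 1.69-fold lower in masses (log2 fold change -0.76 ± 0.15, adjusted p = 0.00173). In T58A lymphomas it was 1.33-fold lower (log2 fold change -0.41 ± 0.15, adjusted p = 0.0484), a call lost without control 1 or 2 or T58A lymphoma 1 or 3 (adjusted p up to 0.164), and in S62A lymphomas it was not called (0.05 ± 0.15, adjusted p = 0.806). The call in T58A lymphomas was also lost with no filter on low counts (adjusted p = 0.0560).

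Of the clamp loader subunits, Rfc1 fell in the masses against control, and Rfc2 to Rfc5 were not called there. Rfc1, the large subunit, stood at 127, 126 and 119 CPM in controls, 137, 127 and 122 in T58A, 153, 174 and 154 in S62A lymphomas and 71.7, 93.2 and 90.8 in masses. S62A lymphomas lay above every control and masses below every control. Rfc1 was 1.45-fold lower in masses (log2 fold change -0.54 ± 0.12, adjusted p = 0.00332). It was 1.29-fold higher in S62A lymphomas (log2 fold change 0.37 ± 0.12, adjusted p = 0.0254), a call lost without control 1, 2 or 3 or S62A lymphoma 2 (adjusted p up to 0.0904). That call was also lost with library size only and limma on FPKM (adjusted p up to 0.0945). Rfc2 and Rfc5 were called in no comparison. All 3 masses were above all other libraries in Rfc2, at 128, 123 and 125 CPM against 91.2 to 122.9 elsewhere, with 0.25 ± 0.13 against control (adjusted p = 0.117). Rfc4 was 1.88-fold lower in masses than in S62A lymphomas (adjusted p = 0.00293) and 1.51-fold higher in S62A lymphomas than control (adjusted p = 0.0325). The last of these calls was lost without control 2 or 3 or S62A lymphoma 2 or 3 (adjusted p up to 0.123). Library size only, only the groups compared and limma on FPKM lost it too (adjusted p up to 0.0902). Rfc3 was 1.62-fold lower in masses than in S62A lymphomas (adjusted p = 0.00485). The FPKM ratio of Rfc2 to Rfc4 was 1.36 ± 0.103 (SD, n = 3) in controls, 1.09 ± 0.0904 in T58A, 0.975 ± 0.145 in S62A lymphomas and 2.01 ± 0.169 in masses. Rfc4 overlaps Eif4a2 on the opposite strand, which held 75926 reads against its 13079, so its level is uncertain.

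Of the enzymes that finish the lagging strand, Fen1, the flap nuclease, was called in no comparison and was 0.19 ± 0.13 against control in masses (adjusted p = 0.254). Lig1, the ligase, was 1.45-fold lower in masses than control (adjusted p = 0.0306), a call lost without control 1, 2 or 3 or mass 1 or 2 (adjusted p up to 0.147) and with no filter on low counts (adjusted p = 0.0511). Against S62A lymphomas Lig1 was 1.75-fold lower in masses (adjusted p = 0.00351), and this call held when any 1 library was left out.

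Rpa1, the large subunit of RPA at chr11:75113761-75161885 (mm9, minus strand), had the largest log2 fold change of the 34 genes against control in both lymphoma groups. It stood at 259.7, 258 and 229 CPM in controls, 467, 789 and 455 in T58A, 460.4, 676 and 814 in S62A lymphomas and 213, 217 and 207 in masses. The lowest lymphoma had 455 CPM and the highest control 259.7, and all masses lay below all controls. Rpa1 was 2.29-fold higher in T58A lymphomas (log2 fold change 1.20 ± 0.24, adjusted p = 0.00272) and 2.61-fold higher in S62A lymphomas (log2 fold change 1.38 ± 0.24, adjusted p = 0.000919). The difference between the 2 lymphoma groups was not called (0.19 ± 0.23, adjusted p = 0.661). The masses were 3.06-fold lower than S62A lymphomas (log2 fold change -1.61 ± 0.24, adjusted p = 0.000232) and 2.69-fold lower than T58A lymphomas (log2 fold change -1.43 ± 0.24, adjusted p = 0.000746). Against control they were not called (-0.23 ± 0.23, adjusted p = 0.435). Here too the SE uses the spread shared by all 12 libraries. The SD of Rpa1 was 189 CPM in T58A and 178 in S62A lymphomas, but 17.0 in controls and 5.08 in masses.

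The partners of Rpa1 were not called in the lymphomas. Rpa2, the middle subunit, stood at 118, 119 and 102 CPM in controls, 79.4, 123 and 120.4 in T58A, 92.01, 118 and 112 in S62A lymphomas and 94.6, 90.7 and 106 in masses. The lymphomas overlapped the controls, and Rpa2 gave -0.07 ± 0.17 in T58A and -0.07 ± 0.17 in S62A against control, neither called (adjusted p = 0.778 and 0.766). Rpa3, the small subunit, is not among the 34 genes and stood at 65.4, 61.2 and 57.1 CPM in controls, 64.02, 68.9 and 74.4 in T58A, 45.9, 82.98 and 129 in S62A lymphomas and 28.8, 28.6 and 28.6 in masses. Rpa3 was lower in masses than control (log2 fold change -1.09 ± 0.28, adjusted p = 0.00701) and was called in neither lymphoma group, where S62A lymphomas ranged from below the controls to above them.

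Per transcript length, the ratio of Rpa1 to Rpa2 was 1.31 ± 0.0267 (SD, n = 3) in controls and 1.31 ± 0.132 in masses. It was 3.18 ± 0.823 in T58A lymphomas and 3.55 ± 0.677 in S62A lymphomas, with the lowest lymphoma at 2.24 and the highest control at 1.34. The ratio of Rpa1 to Rpa3 was 0.818 ± 0.0267 in controls, 1.67 ± 0.563 in T58A, 1.64 ± 0.373 in S62A lymphomas and 1.49 ± 0.0361 in masses. In this ratio the masses lay above all controls and within the range of the lymphomas. The ratio of Rpa2 to Rpa3 was 0.625 ± 0.0298 in controls and 1.15 ± 0.0932 in masses. Against control, then, Rpa1 was called in the lymphomas, Rpa3 in the masses and Rpa2 in no group, and the ratios were not tested. The T58A lymphomas were also compared with control 3 alone, the 1 control that shares their title letter. There Rpa1 gave a log2 fold change of 1.32 and Prim2 1.08, no smaller than with all controls. The 4 genes called lower in T58A lymphomas fell less there, with Pold1 at -0.40, Mcm5 at -0.31, Pcna at -0.23 and Gins3 at -0.69. The control arm held 1 library, so only sizes are given and this comparison does not bear on the calls. Control 3 was also the lowest control in 32 of 34 genes.

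**Figure D4:**
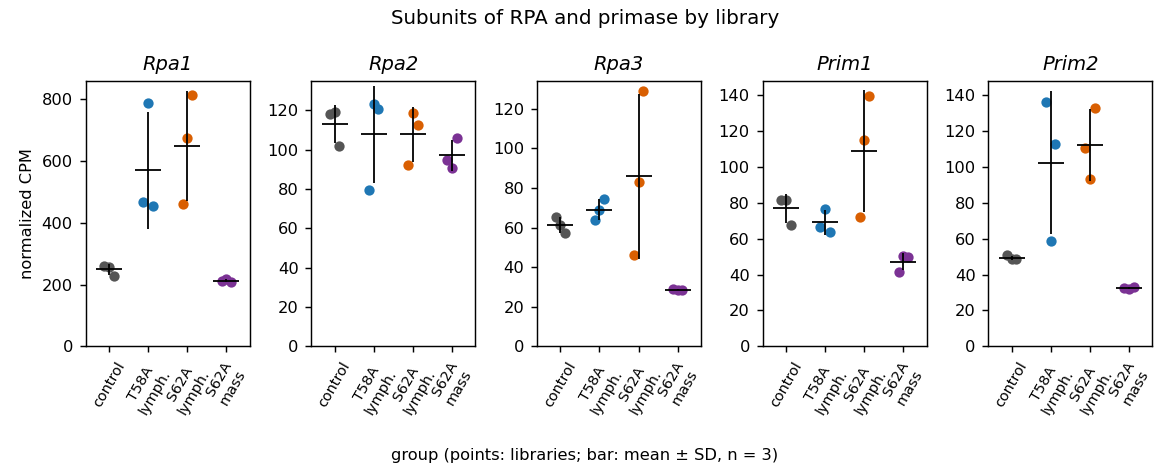
CPM of the RPA subunits Rpa1, Rpa2 and Rpa3 and of the primase subunits Prim1 and Prim2 in each library by group, with bars for the mean ± SD of 3 libraries and a scale from 0 for each gene. Rpa1 and Prim2 are above all controls in all 6 lymphomas, while Rpa2 and Prim1 overlap the controls there.

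The S62A and T58A lymphomas were compared directly to ask whether the mutants differ in these genes. No gene of the 34 was called by edgeR, against 0.859% of all genes higher and 2.29% lower in S62A, and the smallest adjusted p was 0.0522, for Gins3. The estimate was above 0 in 33 of 34 genes, with a median log2 fold change of 0.25 against -0.01 for all genes. Of the 34, 12 had an unadjusted p under 0.05, as did 3654 of the 15606 genes tested. The genes were measured in the same libraries and do not count as separate support. Their mean log2 CPM was 6.43, 6.89 and 6.93 in S62A lymphomas 1, 2 and 3, and 6.40, 6.49 and 6.44 in T58A lymphomas, so the groups overlapped. DESeq2 called 6 higher in S62A, namely Cdc7, Gins3, Mcm4, Mcm5, Pola1 and Prim1. All libraries of the S62A group lay above all of the T58A group in 9 genes, and 10% of all genes tested did so, while no gene of the 34 lay below without overlap (11% of all genes). The 9 were Mcm4 and Mcm5, Cdc7, Mcm10 and Gins3, Pola1, Pole and Pole2, and Rfc1. Without S62A lymphoma 1, 5 genes were called by edgeR, and without T58A lymphoma 1 it was 1. The shares of all genes called above are for edgeR on every library. They were not taken for DESeq2 or with a library left out, so those counts cannot be set against them.

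In size, Gins3 was 1.96-fold higher in S62A than in T58A lymphomas (0.97 ± 0.24 on the log2 scale), Pola1 1.59-fold (adjusted p = 0.0758) and Mcm5 1.37-fold (adjusted p = 0.0847). Pcna was 1.38-fold higher (adjusted p = 0.103). Both comparisons with control share the same 3 control libraries. Of the genes called against control, Mcm5, Gins3 and Pcna were called lower in T58A alone, and Orc6, Mcm2, Mcm10, Pole, Rfc1 and Rfc4 higher in S62A alone. By edgeR on all 12 libraries none of these 9 genes was called in the direct comparison, while DESeq2 called Gins3 and Mcm5.

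A further list of 40 replication genes was set beside the 34. It holds other ORC and GINS subunits, small polymerase subunits, checkpoint mediators and factors that assemble chromatin behind the fork. Against control, 7 of 40 were higher and 2 lower in T58A, 15 higher and 1 lower in S62A lymphomas, and 3 higher and 19 lower in masses, with median log2 fold changes of 0.13, 0.38 and -0.48. Of all genes, 18.8% were higher and 17.4% lower in T58A, 21.9% and 22.2% in S62A lymphomas, and 22.9% and 26.3% in masses. The 7 higher in T58A lymphomas are thus no more than the share of all genes, and the 15 higher in S62A lymphomas and 19 lower in masses are above it. The masses had 32 of 40 lower than S62A lymphomas and 23 of 40 lower than T58A lymphomas, with 1 and 4 higher. Of all genes, 28.6% and 24.6% were lower in these comparisons, and 25.6% and 20.5% higher. In T58A lymphomas Pole3 and Ssrp1, a subunit of the histone chaperone FACT, were higher (0.58, adjusted p = 0.00452, for Ssrp1). Asf1b, a histone chaperone, was lower there (-1.27, adjusted p = 0.000625), as was Chtf8, of an alternative clamp loader (-0.45, adjusted p = 0.00601). In S62A lymphomas Rif1, which restrains origin firing, had the smallest adjusted p (log2 fold change 1.75 ± 0.25, adjusted p = 0.000306), and Asf1b was lower (-0.63, adjusted p = 0.0204).

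Topbp1, which helps to load Cdc45 and activates the checkpoint kinase ATR, was the 1 gene of the 40 called between the lymphomas, higher in S62A (log2 fold change 0.63 ± 0.13, adjusted p = 0.0307). Of all genes tested, 0.859% were higher and 2.29% lower in S62A, so 1 call among 40 does not set the list apart. In masses Pold4 and Top1, the enzyme that relaxes supercoils ahead of the fork, were higher than control, Top1 at 1.13 (adjusted p = 0.00106). Timeless, of the fork protection complex, and Atad5, which unloads PCNA, were lower, at -0.87 (adjusted p = 0.000408) and -1.17 (adjusted p = 0.000499). Atad5 and Topbp1 were also lower in masses than in S62A lymphomas, at -1.85 and -1.21 (adjusted p = 2.65e-05 and 3.11e-05).

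Genes of mitosis were measured beside the replication genes as another group of cell cycle genes. Of 20 mitosis genes such as Cdk1, Top2a and Birc5, 18 were lower than control in masses, against 26.3% of all genes. Their median log2 fold change was -0.95. Against S62A and against T58A lymphomas 16 of 20 were lower (medians -0.78 and -0.68), against 28.6% and 24.6% of all genes. In T58A lymphomas 1 was called higher than control and 3 lower, against 18.8% and 17.4% of all genes. Yet 19 of 20 estimates were below 0 there (median -0.26, all genes 0.01). All T58A lymphomas lay below all controls in 11 of the 20, against 31.2% of all genes. In S62A lymphomas 2 were called higher and 2 lower, against 21.9% and 22.2% of all genes, with 15 of 20 estimates below 0 (median -0.15). The mean log2 CPM of the 34 replication genes minus that of the mitosis genes was -0.88, -0.88 and -0.97 in controls. It was -0.78, -0.79 and -0.62 in T58A lymphomas, -0.57, -0.70 and -0.60 in S62A lymphomas and -0.34, -0.51 and -0.59 in masses. Every library of the other 3 groups was thus above every control in this difference, which was not tested. Of 6 enzymes of deoxynucleotide supply, 4 were lower than control in masses, namely Rrm1, Rrm2, Tyms and Dut. Of 10 E2F factors and E cyclins, 5 were lower than control in masses, and 10 of 10 were lower in masses than in S62A lymphomas. The shares of all genes were 26.3% and 28.6%.

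**Figure D5:**
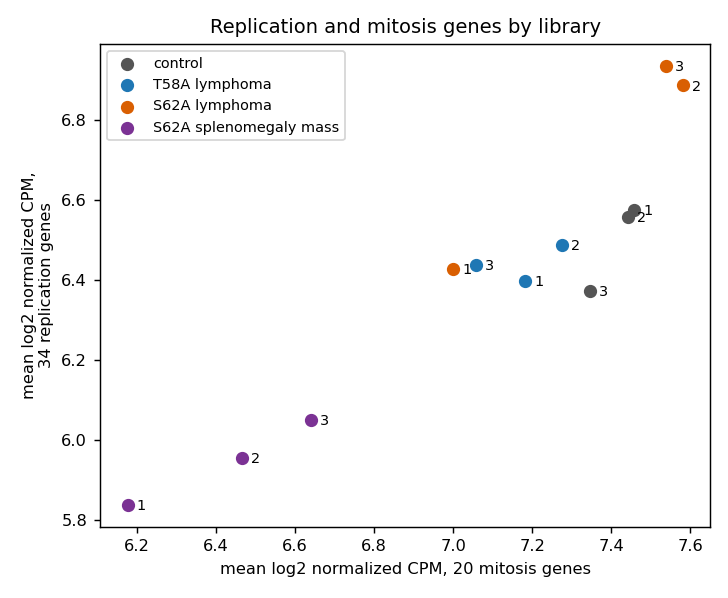
Mean log2 CPM of the 34 replication genes against that of 20 mitosis genes, 1 point per library with its replicate number, coloured by group. The 3 masses are lowest on both axes, S62A lymphomas 2 and 3 highest, and S62A lymphoma 1 lies within the T58A range of replication genes and below it on the mitosis axis.

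The response was also set against the promoter motifs. The 13 genes with an E2F-type match had a median log2 fold change of -0.54 in masses against control, 9 of them called lower, and the 15 genes with a window and no match -0.54, with 8 lower. In S62A lymphomas the medians were 0.10 with a match and 0.35 without, and in T58A lymphomas -0.27 and -0.07. All 6 genes with a window that were called higher in S62A lymphomas lacked the E2F-type match. These medians are descriptions with no test.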

How the data were processed

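The authors deposited, per library, a table of read counts and FPKM (scaled to depth and transcript length) for each RefSeq transcript of build mm9, with symbols and positions. Per the labels' protocols, RNA was selected for poly(A) and prepared with a directional kit. The submitters' processing notes name bcl2fastq 2.20.0.422, Bowtie 1.0.0, DESeq2 and mm9, while the sources used here do not name the counting tool or its strand setting. For each of the 24478 symbols the transcript row with most reads over the 12 libraries was used, from 36141 rows.

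Counts were tested with edgeR 4.0.16 in R 4.3.3: filterByExpr with a minimum count of 10, TMM scaling, glmQLFit over all 12 libraries with group as the term, and Benjamini-Hochberg adjustment over the 15606 genes tested at 0.05. CPM uses the TMM-scaled library sizes. Standard errors are on the log2 scale, taken as the size of the log2 fold change over the square root of the test's F statistic. They use a spread per gene shared by all 12 libraries. Fitted within each group, the common coefficient of variation between libraries was 17.2% in controls, 41.1% in T58A, 45% in S62A lymphomas and 28% in masses. Alternatives were DESeq2 1.42.0, RLE factors, library size only, no filter, the median transcript row, only the groups compared, limma 3.58.1 on log2(FPKM + 1), each library left out, and title letter H only.

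The members and lists were chosen with earlier results of these data known. Library values are given for Mcm2 to Mcm7, Cdc6, Cdt1 and Pcna, for the gene with the smallest adjusted p per step and comparison, and for genes called against the median direction of their step. Of the other replication genes, the 2 higher and 2 lower with the smallest adjusted p are named per comparison. Prim1, Rfc2, Dbf4, Gmnn, Pold3, Pold4 and Rpa3 were singled out as partners of these after their values were seen.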

Additional observations from a re-analysis of the deposited data

How the results depend on the processing

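Over the 34 genes and 6 comparisons, 80 gene and comparison pairs were called, 44 of them in every alternative run, and 36 were lost in at least 1, 3 of these only with title letter H, a comparison with 1 control library. No called direction was reversed. Of genes higher than control in T58A lymphomas there were 2, and with title letter H only the log2 fold changes of Prim2 and Rpa1 were 1.08 and 1.32. Of the 4 lower there were 7 with DESeq2, 8 with only the groups compared, and 1 to 3 with a library left out (1 without control 1 or control 2, 2 without T58A lymphoma 1 or 3). With letter H only these 4 lay from -0.69 to -0.23, each a smaller fall than with all controls. Of the 8 higher in S62A lymphomas there were 3 with library size only, 5 with only the groups compared, 2 with limma on FPKM, and 2 to 15 with a library left out. The 1 lower became 0 with only the groups compared, 2 with limma, and 0 to 1 with a library left out (0 without control 1, control 2 or S62A lymphoma 1). In masses against control, the 0 higher became 1 with only the groups compared, and the 21 lower became 14 with no filter and 12 to 17 with a library left out. Between the lymphomas the 0 higher in S62A became 6 with DESeq2 and 0 to 5 with a library left out. In masses against S62A lymphomas the 0 higher became 1 with DESeq2 and 0 to 1 with a library left out (1 without S62A lymphoma 2 or mass 1), and the 27 lower 20 to 30. In masses against T58A lymphomas the 0 higher became 1 with DESeq2 or RLE factors and 0 to 1 with a library left out (1 without mass 1), and the 17 lower 12 to 17. The cause of these shifts was not tested. With library size only the median of all genes lay at -0.19 for masses against control and -0.15 against T58A lymphomas, with limma on FPKM at -0.18 and -0.13, and with no filter at -0.13, -0.19 and -0.19 for T58A lymphomas, S62A lymphomas and masses against control. With a library left out, a group of 2 is assumed to vary like the others. No paired analysis was possible because the labels give no replicate numbers shared between groups. Depth did not keep any of the 34 genes from being tested.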
